A study of Homo sapiens with 6 samples.

Results

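The inhibitor of apoptosis (IAP) genes and the genes that counteract or parallel them were followed in HCC827, a line of lung adenocarcinoma cells whose EGFR bears an activating deletion, after inhibition of EGFR. The 9 genes BIRC2, BIRC3, XIAP, BIRC6, BIRC7, BIRC5, CFLAR, DIABLO and HTRA2 were chosen by symbol from 28395 listed genes, and all 9 were among the 14215 genes with enough signal to be tested. Polyadenylated RNA was sequenced from 3 libraries of cells given the vehicle DMSO and 3 libraries of cells given 1 µM of the EGFR kinase inhibitor erlotinib, both for 24 h. All 6 libraries came from this 1 line, and erlotinib was used at 1 dose and 1 time. The table numbers the DMSO libraries 1 to 3 and the erlotinib libraries 4 to 6. The study states in general that its experiments were repeated independently, but nothing in the labels says that libraries of a group came from separate cultures, so each p-value measures the spread between these libraries, which may be technical. Total reads assigned to genes ran from 20760204 (erlotinib 5) to 24641819 (DMSO 2). Values are given as signal, that is, reads divided by the library's size factor (0.882 to 1.08), so that a signal of 1000 stands for about as many reads.

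IAP proteins share a zinc-binding fold, the BIR domain. XIAP blocks the executioner and initiator caspases directly, whereas cIAP1 (BIRC2) and cIAP2 (BIRC3) act mainly as ubiquitin ligases at tumor necrosis factor receptors, where they keep RIPK1 in a survival complex and restrain the noncanonical NF-κB kinase NIK. DIABLO (Smac) and HTRA2 leave mitochondria in dying cells and displace caspases from IAPs, CFLAR (c-FLIP) holds back caspase-8 at death receptors, and BIRC5 (survivin) is best known as a subunit of the chromosomal passenger complex that guides chromosome segregation.

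With erlotinib, BIRC5 and BIRC6 fell, CFLAR, BIRC3, HTRA2 and BIRC7 rose, and BIRC2, XIAP and DIABLO did not pass the test. By the threshold used throughout, an adjusted p under 0.05, 2 of 9 members were thus lower and 4 higher (limma on log2(signal + 1), Benjamini-Hochberg over all tested genes). Over all tested genes, 35.4% were lower and 35.3% were higher by the same test, and read against this background the counts do not set the members apart. The groups did not overlap for 2 members lower and 4 members higher, against 36.9% and 36.7% of all tested genes. BIRC7 had no reads with DMSO and passed the filter on low signal only through the erlotinib libraries. Its direction was thus fixed once tested, and its place among the 4 higher members in both counts adds nothing. The median log2 fold change was 0.11 over the 9 members and 0.02 over all tested genes. In these bulk libraries, fewer cells that express a gene and less of its RNA per cell cannot be told apart.

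**Figure D1:**
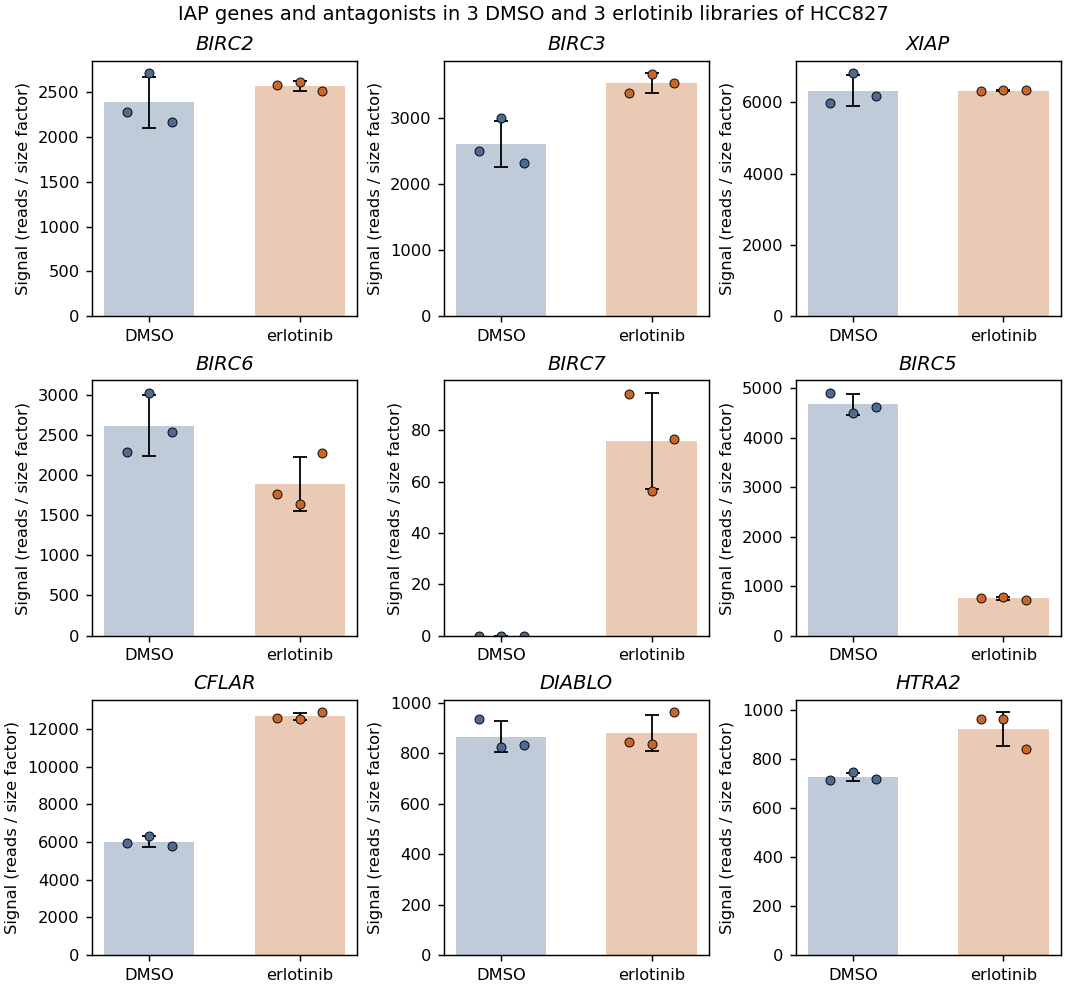
Signal (reads divided by the size factor, linear axes from 0) of the 9 members in each library. Points are libraries in table order (DMSO 1 to 3, erlotinib 4 to 6), bars are group means and error bars are SD over 3 libraries. BIRC5 and BIRC6 sit lower and CFLAR, BIRC3, HTRA2 and BIRC7 higher with erlotinib without overlap, and the groups of BIRC2, XIAP and DIABLO overlap.

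BIRC2 and BIRC3 are near neighbours on chromosome 11 (GRCh38), both on the plus strand, BIRC3 at chr11:102317484-102339403 and BIRC2 at chr11:102347214-102378670, with 7811 bases between them. Their upstream sequences are shown because the adjacent genes had unlike changes and because BIRC3 is a textbook target of NF-κB. Each line below gives the 250 bases before the gene's annotated start (RefSeq, GRCh38.p14, plus strand, 5′ to 3′), BIRC3 at chr11:102317234-102317483 and BIRC2 at chr11:102346964-102347213, and capitals mark matches to the κB consensus.
BIRC3: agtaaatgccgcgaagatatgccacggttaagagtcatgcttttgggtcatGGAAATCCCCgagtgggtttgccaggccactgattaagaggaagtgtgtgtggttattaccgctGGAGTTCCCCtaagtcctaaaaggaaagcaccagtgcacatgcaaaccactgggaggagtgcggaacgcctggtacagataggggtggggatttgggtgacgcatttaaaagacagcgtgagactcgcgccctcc
BIRC2: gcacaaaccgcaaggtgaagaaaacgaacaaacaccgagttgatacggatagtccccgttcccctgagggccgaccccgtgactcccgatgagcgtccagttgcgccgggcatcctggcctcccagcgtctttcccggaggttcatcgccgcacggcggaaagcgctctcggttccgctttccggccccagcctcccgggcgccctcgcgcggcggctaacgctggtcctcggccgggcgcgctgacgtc
The BIRC3 window holds 2 matches, from -199 to -190 and from -135 to -126 relative to the start, both read on the minus strand, and it has a GC content of 52.4% with 11 CpG dinucleotides. The BIRC2 window holds none of these letters and has a GC content of 67.6% with 33 CpG dinucleotides. Among 35116 RefSeq promoter windows, which span 250 bases before to 50 after a start, 11.3% held at least 1 match on either strand. Of the 9 members, 8 had windows (all but BIRC5), and 4 of their 19 windows held a match. The others were in BIRC6, in BIRC7 after its start, and in CFLAR, where the match GGGGAATTCC lies from -97 to -88 of 1 of 4 annotated starts. A match describes letters only and is not evidence of binding.

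BIRC3 signal was 2507, 3002 and 2325 in DMSO 1 to 3 and 3378, 3675 and 3538 in erlotinib 4 to 6. All 3 erlotinib libraries lay above the highest DMSO library, DMSO 2. The mean went from 2611 ± 351 to 3531 ± 148 (SD over 3 libraries). This is a log2 fold change of 0.44 with a standard error of 0.08 and a 95% interval of 0.27 to 0.61 (limma, adjusted p = 7.2e-05). BIRC2 signal was 2279, 2712 and 2173 in the DMSO libraries and 2580, 2615 and 2511 in the erlotinib libraries. DMSO 2 was the highest of all 6, so that the groups overlapped, although DMSO 1 and DMSO 3 were below every erlotinib library. The log2 fold change of BIRC2 was 0.11 (95% interval -0.05 to 0.28, limma adjusted p = 0.217). That interval covers both no change and a rise by a factor of 1.21. Without DMSO 2 the log2 fold change was 0.21 and passed the test (limma adjusted p = 0.0031).

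Within each library, the ratio of BIRC3 to BIRC2 signal does not depend on the size factor. This ratio was 1.10, 1.11 and 1.07 with DMSO and 1.31, 1.40 and 1.41 with erlotinib, so the groups were apart and BIRC3 moved more than BIRC2. An exact two-sided permutation test gave p = 0.1, which is the smallest that 3 libraries against 3 can reach. DMSO 2, the DMSO library with the highest signal for both genes, had a ratio close to those of DMSO 1 and DMSO 3.

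Among other genes within 500 kb of BIRC2 or BIRC3, 5 had enough signal to be tested. TMEM123, which encodes a cell-surface glycoprotein, lies 17662 bases beyond BIRC2 and rose from 12698 ± 1454 to 15374 ± 308 (log2 fold change 0.28, limma adjusted p = 0.0017). YAP1, the transcriptional coactivator of the Hippo pathway, lies 84060 bases from BIRC3 on its other side and fell from 9609 ± 587 to 8497 ± 307 (log2 fold change -0.18, limma adjusted p = 0.0202). This call is lost when libraries are scaled to their total reads, where the value is 0.0035. MMP7, which encodes the matrix metalloproteinase matrilysin, went from 35.5 ± 15.98 to 635 ± 33.2, a log2 fold change of 4.21 (limma adjusted p = 9.1e-13), and it lies 141838 bases beyond BIRC2. The ciliary gene CFAP300 (log2 fold change 0.94, limma adjusted p = 0.028) and the centrosomal gene CEP126 (0.53, limma adjusted p = 0.0057) also rose. The changes across the region thus differed in size. Of the 7 tested genes BIRC2 passed in neither direction. Under scaling to total reads BIRC2 was called higher (0.29), and YAP1 took its place as the gene without a call. These calls stand beside 35.4% lower and 35.3% higher over all tested genes.

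**Figure D2:**
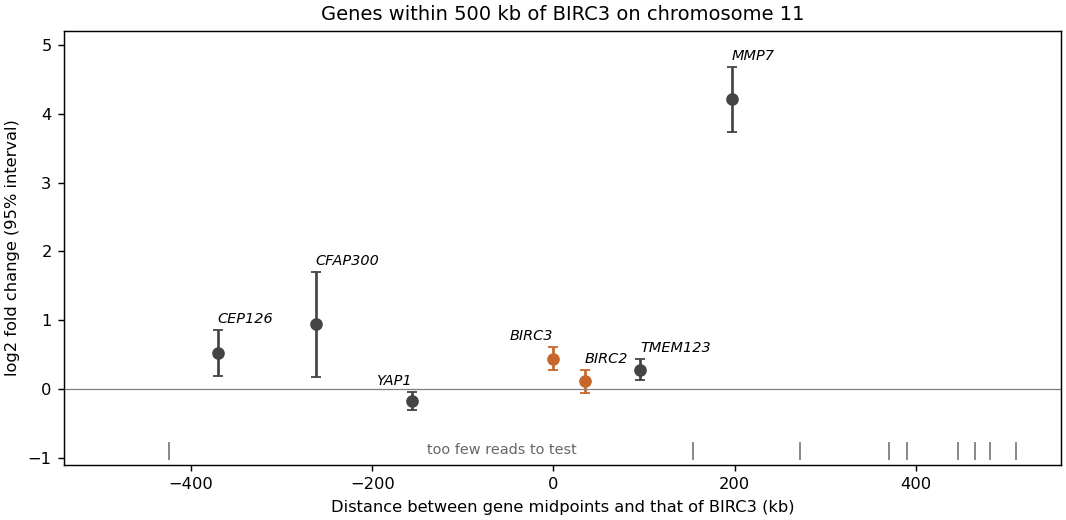
Log2 fold change (erlotinib against DMSO, limma, bars are 95% intervals) of genes within 500 kb of BIRC3, by the distance in kb between each gene's midpoint and that of BIRC3. Orange points are BIRC3 (0.44) and BIRC2 (0.11), dark points are the 5 other tested genes, with MMP7 highest at 4.21 and YAP1 lowest at -0.18, and ticks along the bottom are genes with too few reads to test.

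By rule, the 3 tested genes whose profile over the 6 libraries was nearest to that of BIRC3 were BRWD3, OGFRL1 and ZNF287. After centring log2(signal + 1) on its mean, the root mean square difference from BIRC3 was 0.039 for BRWD3, 0.042 for OGFRL1 and 0.042 for ZNF287. BRWD3 shared the high DMSO 2 value, with a signal of 2154, 2630 and 2061 in the DMSO libraries and 3031, 3062 and 3185 in the erlotinib libraries. The reference transcripts are long, at 6877 bases for BIRC3, 12921 for BRWD3, 8492 for OGFRL1 and 7639 for ZNF287. In DMSO 2, the median deviation from the group mean was 0.06 log2 units over tested genes of 5000 to 10000 bases. Above that length it was 0.08. The part of this trend in the shared profile was not tested.

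XIAP (chrX:123859708-123913972, plus strand), the IAP that inhibits caspases most directly, had a signal of 5987, 6817 and 6180 with DMSO. Its signal with erlotinib was 6318, 6343 and 6335. The 3 erlotinib libraries all lay inside the DMSO range, and they lay close together, with a SD of 12.4 against 434 with DMSO. The log2 fold change was 0.003 with a 95% interval of -0.13 to 0.14 (limma adjusted p = 0.968), so changes beyond a fold of 0.912 or 1.10 lay outside that interval. XIAP and BIRC2 were called higher when libraries were scaled to their total reads (log2 fold changes 0.18 and 0.29), a scaling that also moves the median of all tested genes to 0.19. They passed as well, at 0.12 and 0.28, after a correction for transcript length and GC content that was chosen after the data were seen (limma adjusted p = 0.0251 and 9.4e-05).

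BIRC6 (chr2:32357023-32618878, plus strand) encodes a very large protein that joins a BIR domain to a ubiquitin-conjugating domain. Its signal was 2286, 3029 and 2534 with DMSO and 1766, 1635 and 2276 with erlotinib. The highest erlotinib library, erlotinib 6, was just below the lowest DMSO library, DMSO 1. The mean fell from 2617 ± 379 to 1892 ± 338 (SD, n = 3), a log2 fold change of -0.47 with a standard error of 0.11 and a 95% interval of -0.70 to -0.25 (limma adjusted p = 5.6e-04). BIRC6 has the longest reference transcript of the members, at 15687 bases. Over the 664 tested genes with transcripts of at least 10000 bases, the median deviation from the group mean was 0.08 log2 units in DMSO 2 and 0.05 in erlotinib 6, the libraries where BIRC6 was highest in each group, and it was -0.04 to -0.02 in the other libraries. With the correction for length and GC content the log2 fold change was -0.40 (limma adjusted p = 6.4e-05). Scaled to total reads it was -0.29 (limma adjusted p = 0.0285), the smallest fall of BIRC6 among the alternatives. TTC27, the nearest tested neighbour at 9172 bases, fell from 588 ± 35.6 to 349 ± 34.3 (log2 fold change -0.75, limma adjusted p = 4.8e-06).

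BIRC7 (livin, chr20:63235905-63240495, plus strand) is an IAP found in few normal tissues and known from melanoma. It had 0 reads in each of the 3 DMSO libraries, which together held 66672786 reads, and 102, 57 and 82 reads in erlotinib 4, 5 and 6. In signal, the erlotinib libraries were at 94.1, 56.4 and 76.8, with a mean of 75.8 ± 18.9 (SD, n = 3). Set against a floor of 3 reads in a DMSO library (a signal of 3.40), the mean was at least 22.3-fold higher and the lowest erlotinib library at least 16.6-fold higher. The floor covers counting error only. All 3 erlotinib libraries were above all DMSO libraries. BIRC7 passed the filter of a mean signal of 10 only through the erlotinib libraries, so its direction was fixed once it was tested. Its place among the 4 higher members (limma adjusted p = 2.4e-08) adds nothing to these values. Even so, 87.3% of the tested genes had a higher mean signal than BIRC7. The next gene on the chromosome, NKAIN4, which encodes a protein that interacts with a subunit of the sodium pump, lies 289 bases past the end of BIRC7 on the opposite strand, so that the genes end toward each other. NKAIN4 also had a signal of 0 in every DMSO library, and it had 64.6, 58.4 and 58.0 with erlotinib. Whether the counting used strand is not stated, and reads that run past the end of one gene into the other cannot be told apart from its own; their part in either value was not tested.

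**Figure D3:**
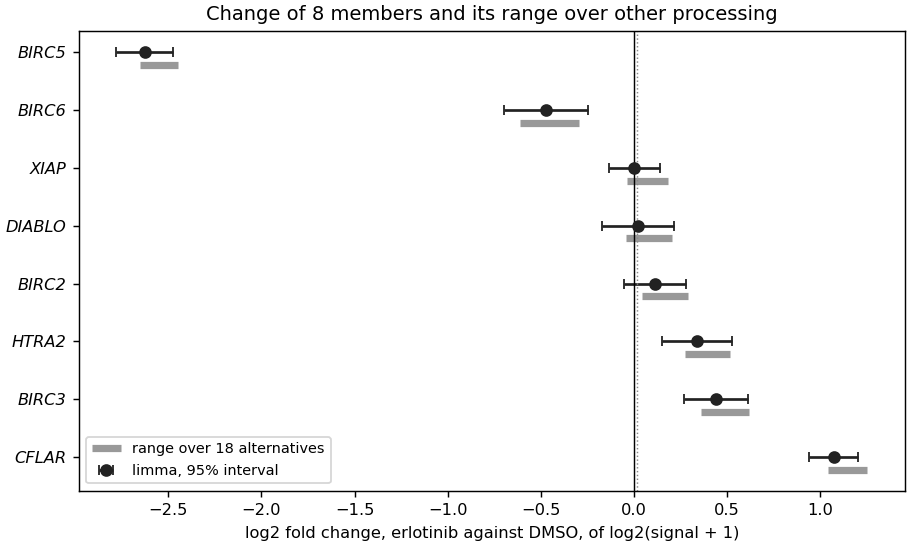
Log2 fold change (erlotinib against DMSO, of log2(signal + 1)) of 8 members, black points with limma 95% intervals, and below each the range over 18 alternative settings in grey. The dotted line is the median of all tested genes (0.02), and BIRC7 is left out because its value depends on the pseudocount. BIRC5, BIRC6, HTRA2, BIRC3 and CFLAR stay on 1 side of 0, as does BIRC2, and the ranges of XIAP and DIABLO cross it.

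BIRC5 (chr17:78214253-78225635, plus strand) was the member with the largest fall. Its signal was 4910, 4493 and 4623 with DMSO and 769, 776 and 723 with erlotinib, so every erlotinib library was far below every DMSO library. The log2 fold change was -2.63 with a 95% interval of -2.78 to -2.47 (limma adjusted p = 4.4e-17), that is, the level fell by 83.8%. Of all tested genes, 96.0% had a smaller change in size. BIRC5 is among the genes that the study itself picked out in these libraries as regulated by YAP and TAZ, so its direction here is not independent evidence.

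The partners of BIRC5 in the chromosomal passenger complex were lower too, 3 of 3, against 35.4% of all tested genes. AURKB, the kinase of the complex, went from a signal of 1840 ± 56.1 to 182 ± 11.5 (log2 fold change -3.33, limma adjusted p = 9.6e-17). CDCA8 (borealin), which helps place the complex at the centromere, went from 2180 ± 113 to 338 ± 53.7 (log2 fold change -2.70, limma adjusted p = 5.5e-15). INCENP, the scaffold, went from 3349 ± 164 to 830 ± 64.9 (log2 fold change -2.01, limma adjusted p = 6.7e-15). The 4 subunits therefore did not fall equally. The ratio of BIRC5 to AURKB signal within a library was 2.77, 2.40 and 2.47 with DMSO and 3.95, 4.38 and 4.17 with erlotinib, while the ratio of BIRC5 to INCENP went from 1.40, 1.41 and 1.38 to 0.916, 0.872 and 0.950. Neither ratio overlapped between groups (exact permutation p = 0.1 for each, the smallest possible). The ratio of BIRC5 to CDCA8 overlapped, at 2.14 ± 0.0433 with DMSO and 2.27 ± 0.280 with erlotinib (SD, n = 3; exact permutation p = 0.6).

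BIRC5 moved in the range of other mitotic genes. Of 15 mitotic genes, all 15 were lower (35.4% of all tested genes), and their median change was -2.52 on the log2 scale against 0.02 over all tested genes. The 4 with the largest change were the mitotic kinase CDK1 (-3.03), cyclin A2, CCNA2 (-2.99), the checkpoint kinase BUB1 (-2.77) and the proliferation marker MKI67 (-2.76), each past the threshold by limma. The 3 profiles nearest to that of BIRC5 were those of the histone gene H2AFX (root mean square difference 0.067 log2 units, log2 fold change -2.68), the mitotic kinase gene AURKA (0.067, -2.60) and the mitotic kinesin gene KIF11 (0.075, -2.61). The nearest tested gene on the chromosome, AFMID, 6551 bases away, did not follow, with a signal of 303 ± 27.9 and 285 ± 47.6 (log2 fold change -0.10, limma adjusted p = 0.548).

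CFLAR (chr2:201116164-201176687, plus strand), the caspase-8 homologue without protease activity, had a signal of 5956, 6337 and 5756 with DMSO and 12587, 12499 and 12894 with erlotinib. The replicates of each group lay close together and the groups were far apart. The log2 fold change was 1.07 with a standard error of 0.06 and a 95% interval of 0.94 to 1.204 (limma adjusted p = 3.0e-12), a fold of 2.11. CFLAR, CASP10 and CASP8 stand in a row on chromosome 2, all on the plus strand, with 6454 bases between CFLAR and CASP10 and 4057 between CASP10 and CASP8. CASP10, an initiator caspase of the same pathway, rose more than CFLAR, from 697 ± 28.8 to 2147 ± 63.4 (log2 fold change 1.62, limma adjusted p = 1.8e-13). CASP8, the initiator that CFLAR restrains, had 1587 ± 75.5 and 1596 ± 122, a log2 fold change of 0.01 with a 95% interval of -0.16 to 0.17 (limma adjusted p = 0.946), although it was called higher when libraries were scaled to their total reads. CFLAR-AS1, an antisense RNA whose exons share 3.46% of the exon bases of CFLAR, was low at 8.58 ± 1.54 and 17.0 ± 2.89, and it reached the filter on low signal only through the erlotinib libraries.

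The ratio of CFLAR to CASP8 signal was 3.84, 3.79 and 3.75 with DMSO and 8.64, 7.42 and 7.83 with erlotinib. The ratio of CFLAR to FADD, the adaptor that recruits both proteins to death receptors, went from 1.46, 1.83 and 1.57 to 4.88, 4.70 and 5.26. In both ratios the groups were apart (exact permutation p = 0.1 for each, the smallest possible). These are ratios of signal, not of proteins or of transcripts per length.

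DIABLO (chr12:122207662-122227456, minus strand), the mitochondrial IAP antagonist Smac, had a signal of 936, 826 and 834 with DMSO and 843, 836 and 963 with erlotinib. The groups overlapped, and the highest and the lowest DMSO value bracketed 2 of the 3 erlotinib libraries. The log2 fold change was 0.02 with a 95% interval of -0.17 to 0.22 (limma adjusted p = 0.821). In the GENCODE annotation, exons of B3GNT4 on the opposite strand share 13.9% of the exon bases of DIABLO, and B3GNT4 was low at 27.6 ± 12.03 and 33.4 ± 5.42 and passed in neither direction. Exons of 2 further annotated coding genes on the same strand share 31.5% and 16.4% of those bases, and how reads there were assigned was not tested. VPS33A, 2108 bases away, had 955 ± 68.5 and 840 ± 42.1 (log2 fold change -0.18, limma adjusted p = 0.0726), and among the scalings tried it passed with limma on TMM-scaled values (-0.20) but not with edgeR and TMM factors.

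HTRA2 (chr2:74529405-74533556, plus strand), a mitochondrial serine protease that can also bind IAPs, had a signal of 715, 747 and 718 with DMSO. With erlotinib its signal was 962, 961 and 840, above every DMSO library, with erlotinib 6 the lowest of the 3. The mean went from 727 ± 17.5 to 921 ± 70.3, a log2 fold change of 0.34 with a 95% interval of 0.15 to 0.53 (limma adjusted p = 0.0023). HTRA2 shares 4.85% of its exon bases with AUP1 and 27.5% with LOXL3, both on the opposite strand. AUP1, which acts in lipid droplets and protein quality control, fell from 1466 ± 85.0 to 984 ± 55.3 (log2 fold change -0.57), and LOXL3, a lysyl oxidase, fell from 129 ± 28.6 to 67.0 ± 0.509 (log2 fold change -0.91, both past the threshold by limma). How reads in the shared bases were assigned, and their part in the value of HTRA2, was not tested. Other genes of the table that overlap a member in RefSeq or lie within 10 kb of one (BIRC6-AS2, MIR558, MIR3196, TMEM235, LOC101593348, LRRC43 and DQX1) had a mean signal under 10 and were not tested. GENCODE lists further overlapping genes that were not analysed here, of which the pseudogene IMPDH1P10 shares 6.62% of the exon bases of CFLAR on the opposite strand.

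Setting XIAP against its antagonists, the ratio of XIAP to DIABLO was 6.40, 8.26 and 7.41 with DMSO and 7.50, 7.59 and 6.58 with erlotinib, which overlapped (exact permutation p = 1). The ratio of XIAP to HTRA2 was 8.38, 9.13 and 8.61 with DMSO and 6.57, 6.60 and 7.55 with erlotinib, lower in all 3 erlotinib libraries (exact permutation p = 0.1, the smallest possible). The ratio of BIRC6 to XIAP was 0.382, 0.444 and 0.410 with DMSO and 0.280, 0.258 and 0.359 with erlotinib, also without overlap (exact permutation p = 0.1). In all, 9 ratios were computed, chosen after the values were seen, and the exact permutation test used for them cannot reach 0.05 with 3 libraries against 3. Over the 9 ratios, 7 did not overlap between groups, and their exact permutation p of 0.1 became 0.129 after Benjamini-Hochberg adjustment over the 9. For single genes, the groups did not overlap for 36.9% (lower) and 36.7% (higher) of all tested genes. The share over all pairs of genes was not computed, so the count does not set these ratios apart.

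**Figure D4:**
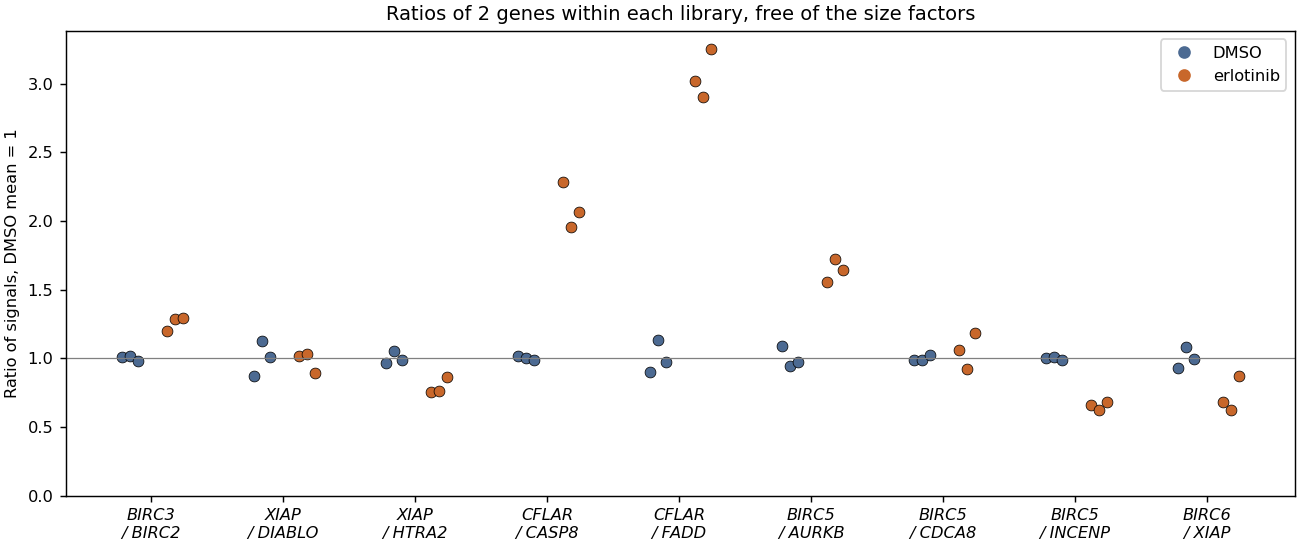
Ratio of the signals of 2 genes within each library, divided by the mean of the ratio over the 3 DMSO libraries (linear axis from 0). Blue points are the 3 DMSO libraries and orange points the 3 erlotinib libraries. CFLAR over FADD and CFLAR over CASP8 stand highest with erlotinib, BIRC5 over INCENP, XIAP over HTRA2 and BIRC6 over XIAP lie below the DMSO libraries, and XIAP over DIABLO and BIRC5 over CDCA8 overlap.

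Levels of different members can be compared only per length, here as signal per kilobase of the reference transcript, and the transcripts that these cells use were not measured. With DMSO, the level of BIRC5 was the highest at 1816 ± 82.9 per kilobase (SD, n = 3). XIAP followed at 739 ± 50.8, then BIRC2 at 634 ± 75.9 and DIABLO at 588 ± 41.8. The range of each of these 3 over the DMSO libraries overlapped that of its neighbour among them. Within each DMSO library, though, XIAP was above BIRC2. The next 3 levels, CFLAR at 412 ± 20.2, HTRA2 at 407 ± 9.83 and BIRC3 at 380 ± 51.0, were not separated by their spread. BIRC6 was at 167 ± 24.1 and BIRC7 at 0. With erlotinib, CFLAR headed the order at 866 ± 14.2 per kilobase, XIAP was at 740 ± 1.45, BIRC2 at 683 ± 14.1 and DIABLO at 599 ± 48.8. Among these, the range of each over the erlotinib libraries lay above that of the next. HTRA2 at 516 ± 39.4 and BIRC3 at 513 ± 21.6 did not differ beyond their spread, and BIRC5 stood below them at 294 ± 11.3, with BIRC6 at 121 ± 21.6 and BIRC7 at 56.8 ± 14.1. The reference transcript of CFLAR is long, at 14612 bases, so its level per kilobase would be higher if shorter transcripts prevailed. That of DIABLO is short, at 1471 bases, so the level of DIABLO would be lower if longer transcripts prevailed. The exon bases that DIABLO shares with other genes, given above, leave its place in the order uncertain as well.

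Around the members, lists of genes of the same pathways were counted with the same test. The family members NAIP and BIRC8 were listed at 0 in all 6 libraries. NAIP lies in a duplicated region, and reads that map to several places were not counted, so its value is uncertain. Of 7 other proteins that bind or regulate IAPs, 6 had enough signal, 3 of them lower and 3 higher around a median of 0.07 on the log2 scale, against 35.4% lower and 35.3% higher over all tested genes. Scaled to total reads, TRAF2 lost its lower call and the median was 0.25. XAF1, which binds XIAP and opposes it, went from 263 ± 24.4 to 1063 ± 122 (log2 fold change 2.01, limma adjusted p = 1.9e-12). TRAF3, which brings NIK to the cIAPs, fell by 0.51 on the log2 scale. USP19, a deubiquitinase of cIAPs, rose by 0.49, and both passed the threshold by limma. The seventh gene, SEPT4, was matched by its Entrez identifier and had at most 3 reads in a library.

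Of 9 caspase and apoptosome genes, 3 were lower, 4 were higher and 2 passed in neither direction (median log2 fold change 0.06), shares close to the 35.4% lower and 35.3% higher of all tested genes. The gene of cytochrome c, CYCS, which nucleates the apoptosome, fell from 11870 ± 1334 to 2778 ± 108 (log2 fold change -2.09, limma adjusted p = 1.5e-15). CASP10 rose most, as given above, followed by the executioner CASP6 (log2 fold change 0.73, limma adjusted p = 6.9e-08) and the apoptosome initiator CASP9 (0.69, limma adjusted p = 2.0e-04). Of the 10 death receptor genes, 8 were tested, 4 lower, 3 higher and 1 in neither direction (35.4% and 35.3% of all tested genes), with a median of -0.14, and the ligand genes FASLG and TNF were listed at 0 in all libraries. TNFSF10, which encodes the death ligand TRAIL, went from 51.4 ± 10.98 to 771 ± 53.7 (log2 fold change 3.90, limma adjusted p = 1.6e-14). One of its receptors, TNFRSF10A, fell by 1.03 and FADD by 0.54 on the log2 scale, whereas the TNF receptor adaptor TRADD rose by 0.63, each past the threshold by limma. Scaling to total reads left 2 of the 4 lower calls in this list and turned its median to 0.04.

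Of 12 NF-κB factors and targets, 7 were higher, 3 were lower and 2 passed in neither direction, with a median log2 fold change of 0.29. The chemokine gene CXCL8 went from 125 ± 13.8 to 575 ± 66.7 (log2 fold change 2.20, limma adjusted p = 1.3e-11), and RELB, a subunit of the noncanonical pathway, from 383 ± 84.9 to 761 ± 31.8 (1.01, limma adjusted p = 8.5e-07). NFKBIA, the inhibitor that NF-κB itself induces, went from 2405 ± 96.6 to 4274 ± 234 (0.83, limma adjusted p = 9.5e-10). MAP3K14, the gene of the kinase NIK that the cIAPs restrain, fell from 2210 ± 55.5 to 1132 ± 68.0 (-0.97, limma adjusted p = 4.3e-10). NFKB1, the gene of the p50 precursor (-0.55, limma adjusted p = 5.6e-06), and the target TNFAIP3, which encodes the feedback inhibitor A20 (-0.42, limma adjusted p = 6.2e-05), were the other 2 that fell. These counts stand beside 35.3% higher and 35.4% lower over all tested genes, and whether this pathway had a part in the values of BIRC3 and CFLAR was not tested.

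**Figure D5:**
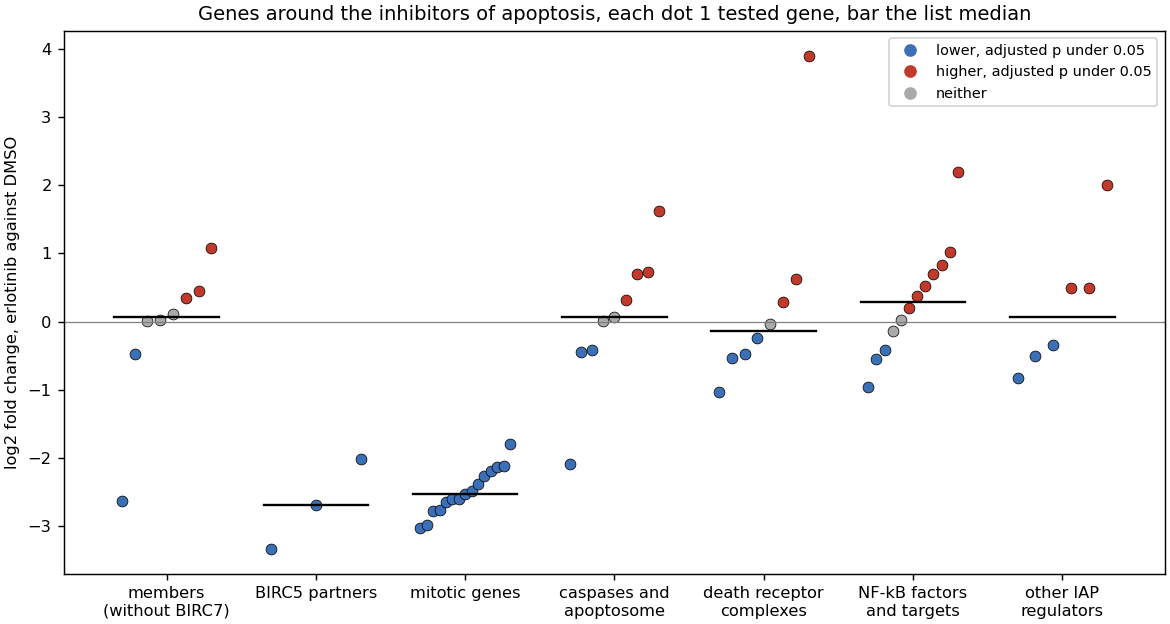
Log2 fold change (erlotinib against DMSO, limma on log2(signal + 1)) of each tested gene of the member list (without BIRC7) and of 6 pathway lists, with blue for lower and red for higher at an adjusted p under 0.05, grey for neither, and a black bar at each list's median. All dots of the BIRC5 partners and the mitotic genes lie at or below -1.80, and the other lists spread to both sides of 0, with TNFSF10 highest at 3.90.

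The libraries carried the markers of the labelled cell type. All 7 epithelial and lung adenocarcinoma markers were present, and EPCAM was at 9852 ± 235 with DMSO and 9485 ± 281 with erlotinib. Their summed signal was 289678, 257616 and 280137 with DMSO and 195057, 198485 and 200199 with erlotinib, led by KRT7. Of these markers, 4 were lower (KRT7, KRT8, KRT18 and KRT19) and 1 was higher (NKX2-1), against 35.4% and 35.3% of all tested genes. CDH1 was also called higher when libraries were scaled to total reads, and with edgeR and TMM factors. Of 5 leukocyte markers, CD68 made up nearly all of the sum of 2777 to 3535, MS4A1 was at 0 and the other 3 (PTPRC, CD3E and CD14) summed to at most 31.4. Of 5 fibroblast markers, COL1A1 rose from 77.7 ± 15.3 to 216 ± 27.9 and the other 4 (COL1A2, COL3A1, PDGFRA and PDGFRB) summed to at most 7.49 in any library. The 4 endothelial markers summed to 34.0, 15.8 and 20.3 with DMSO and 58.1, 46.5 and 45.9 with erlotinib, with VWF at 3.94 ± 3.31 and 27.4 ± 6.93 and PECAM1, CDH5 and KDR each under 20 in every library.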

How the data were processed

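Poly(A) RNA libraries of HCC827 cells, 3 with DMSO and 3 with 1 µM erlotinib for 24 h, were sequenced paired-end. Per the study's methods and the submitters' processing notes, reads were mapped to GRCh38 with Bowtie2 2.3.4, uniquely mapped reads were counted per gene with featureCounts 1.6.3, and DESeq2 1.18.1 was used. Bowtie2 does not split reads across introns, which can lower the counts of genes with short exons. Whether counting used strand is not given in the sources used here. The deposited values are a signal, not raw counts: the authors divided each library's reads by a size factor. Within 0.1 of a step, 100% of the values above 0 were whole reads, and these reads served the count tests tried as alternatives. Because the table was not raw counts, limma replaced a count test.

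Each gene was fitted with limma 3.58.1 (R 4.3.3) on log2(signal + 1) with a variance trend over all 6 libraries, two-sided, with Benjamini-Hochberg adjustment over the 14215 genes whose mean signal reached 10 and a threshold of 0.05. Fold changes on this scale understate those of low genes. The fit was tested on simulated data, but the outcome is not given here and no result rests on it. Alternatives were edgeR 4.0.16 and DESeq2 1.42.0 on the recovered reads, limma-voom, TMM and total-read scaling, pseudocounts of 0.1 and 10, other filters, a threshold of 0.01, each library left out, and a correction for length and GC content chosen after seeing the data.

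The members and lists were chosen with earlier results of these data known. All 9 members were named, as were the 3 BIRC5 partners, up to 4 genes per list with the largest change past the threshold and a mean signal of at least 50, genes that overlap a member or lie within 10 kb (tested genes within 500 kb for BIRC2 and BIRC3), and the 3 profiles nearest to those of BIRC5 and BIRC3. One gene that the rule names is not reported here. Markers, ratios, CASP8, the ligands listed at 0, NAIP, BIRC8, SEPT4, TRAF2, NFKB1, TNFAIP3 and IMPDH1P10 were named outside that rule after their values were seen. Entrez identifiers stood in for the symbol of 475 genes. Coordinates are RefSeq on GRCh38, exon overlaps are from GENCODE, lengths are those of reference transcripts, and no member had a copy on an alternate contig (minimap2, at least 90% of the transcript at 97% identity). No pair of replicates was alike within sampling noise (chi-square over degrees of freedom of 4.13 to 24.3).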

Additional observations from a re-analysis of the deposited data

How the results depend on the processing

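Over 18 alternatives, 2 members were lower in each and 3 to 6 were higher, against 2 and 4 as reported. BIRC3, BIRC6, BIRC5, CFLAR and HTRA2 kept their direction and stayed past the threshold under all 18, with log2 fold changes of 0.36 to 0.62, -0.61 to -0.29, -2.66 to -2.45, 1.04 to 1.25 and 0.28 to 0.52. BIRC7 passed under the 17 alternatives that tested it. This adds nothing to its reads, because BIRC7 had none in any DMSO library and had them in every erlotinib library, so its direction was fixed. BIRC7 could not be tested with at least 10 reads required in every library. The value fitted for it depends on the pseudocount (9.54 at 0.1 and 3.08 at 10) and is no bound. Scaled to total reads, BIRC2 was 0.29 (limma adjusted p = 0.0035) and XIAP 0.18 (limma adjusted p = 0.0194), both called higher, with the median of all tested genes at 0.19; the value of XIAP was below that median. Corrected for length and GC content, an alternative added after the data were seen, BIRC2 was 0.28 and XIAP 0.12, both called higher. XIAP was -0.014 with TMM factors (limma adjusted p = 0.856). Leaving out 1 library gave XIAP -0.036 to 0.058, DIABLO -0.042 to 0.082 and BIRC2 0.047 to 0.21. XIAP was below 0 without DMSO 1 (-0.036) or DMSO 3 (-0.013). DIABLO was below 0 without DMSO 2 (-0.0079), DMSO 3 (-0.00079) or erlotinib 6 (-0.042), none of them past the threshold, and BIRC2 passed without DMSO 2 (0.21). The cause of these shifts was not tested, beyond what each alternative does to the scale or the libraries. Across the table, 5031 genes were lower and 5012 higher as reported, and 3955 and 6156 with scaling to total reads, and over the 18 alternatives the counts were 3955 to 5144 lower and 4323 to 6156 higher. No paired analysis was possible because the numbers of the erlotinib libraries in the table are not those of the erlotinib samples in the labels. BIRC7 and NKAIN4 had no reads with DMSO, and SEPT4 had too little signal to be tested. Whether deeper sequencing would change this was not tested.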
